A study of Passer montanus with 72 samples.

Results

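Male and female rostral hippocampus were compared in Eurasian tree sparrows (Passer montanus) by sequencing RNA. The 23 rostral libraries, of 72 in the series, came from 13 birds labelled male and 10 labelled female, 1 library per bird. The birds were of wild origin and lived in captivity, and each also gave a library from caudal hippocampus and from striatum. The labels give no age, behaviour or treatment for a bird. An eleventh bird labelled female, bird 260, was left out: the birds were chosen by their label and their counts of CHD1W, a gene of the female-specific W chromosome, and its rostral library held none. The sexes were compared gene by gene, and the genes were kept in 3 classes: 1084 on the sequence that carries SMAD2 (the Z), 165 on the sequence that carries CHD1W (the W), and 20708 on neither.

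In birds the male has a pair of Z chromosomes and the female has a Z and a W. Mammals silence an X chromosome in females, whereas birds lack a comparable silencing of a whole Z, and compensation for the single Z of the female differs from gene to gene. The W carries few genes, and most of those still active descend from the same ancestral genes as a partner on the Z. The avian hippocampus serves spatial memory, and in songbirds it has also been linked to responses to novelty; the series title concerns neophobia, the avoidance of new things.

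Total counts were 3422268 to 5323201 per rostral library, with a count in 10684 to 11547 genes. The 10 females had 121 to 205 counts of CHD1W and the 13 males at most 3. Because CHD1W chose the birds, the W genes are described here without a test. Markers of the labelled tissue were present: SLC17A6, the glutamate transporter of pallial excitatory neurons, stood at 1025 to 1600.3 CPM in females (median 1188) and 949 to 1525 CPM in males (median 1242). DRD2, a dopamine receptor that defines striatal neurons, had medians of 1.74 CPM in females and 1.92 in males, but DRD1, another of them, had 68.8 to 127 CPM in females (median 108) and 56.4 to 109.9 CPM in males (median 75.9). Striatal marker genes were not all low. CPM here is a count divided by the library's TMM-scaled total and multiplied to a common total.

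The library of female 22 stood apart. In a principal component analysis of the genes on neither Z nor W, the first component held 21.3% of the variance, and 9 of 13 males but only 1 of 10 females, bird 22, lay below 0. Bird 22 was at -23.6, among the males, while the other females ranged from 0.28 to 26.8; male 8, at 16.6, was the male farthest on the side of the females. The W and Z genes of bird 22 fitted its label, with 2077 CPM over the W genes and 121 counts of CHD1W. Counts of genes outside the sex chromosomes are therefore given with and without bird 22, and its effect is given for some single genes. That bird was singled out by where it lay on these same genes. Thus neither the larger number of calls without it nor a fold or adjusted p without it is independent evidence of a sex difference.

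**Figure D1:**
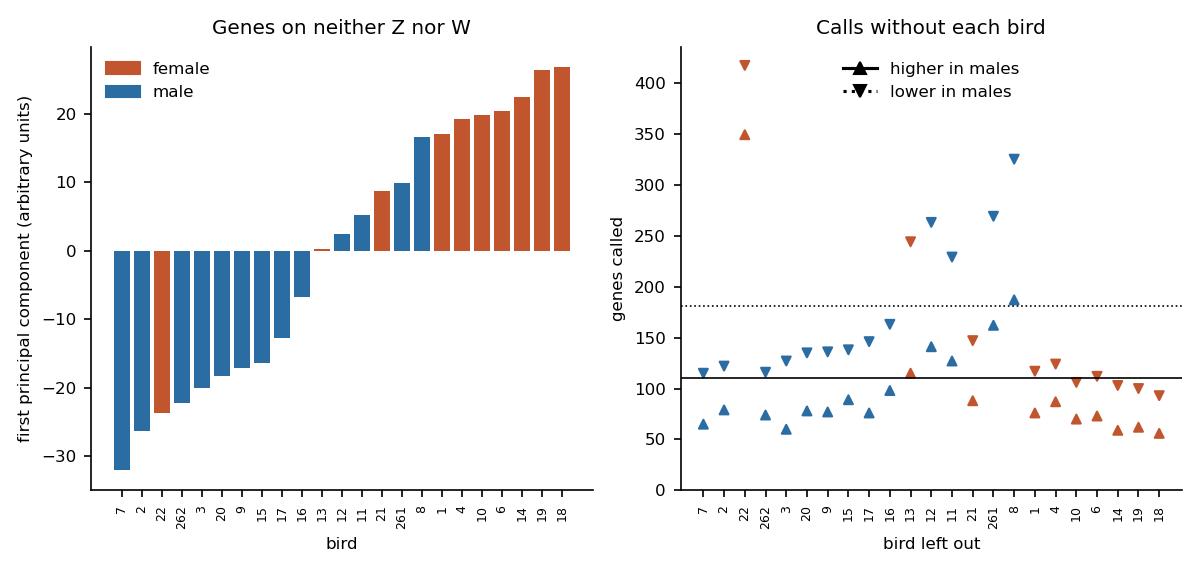
The left panel gives each bird's score on the first principal component of genes on neither Z nor W (arbitrary units), ordered by score, and the right panel the number of those genes called higher (up triangles, solid line with all birds) or lower (down triangles, dotted line with all birds) in males when the bird on the axis is left out. Without female 22 the counts rise from 110 and 181 to 349 and 417, and without male 8 to 187 and 325.

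Genes on the Z were higher in males. The mean log2 level of Z genes relative to other genes, on the log2(CPM + 1) scale, was -1.25 to -1.03 in females (mean -1.15 ± 0.07, SD, n = 10) and -0.61 to -0.39 in males (mean -0.49 ± 0.07, SD, n = 13), so every male lay above every female. Per gene, the sexes were tested with edgeR's quasi-likelihood test and Benjamini-Hochberg adjustment over 9078 genes. Of the 9048 outside the W, 5.86% were called at an adjusted p under 0.05 (3.86% higher and 2% lower in males). The adjustment took in the 30 W genes, which differ by the choice of birds; over the 9048 alone, 235 Z genes were higher, and 96 genes on neither Z nor W were higher and 166 lower. Every adjusted p below is from this test or from its sex by region version, and a log2 fold is given ± its standard error. Of the 1084 Z genes, 629 had a count in some bird and 409 passed the filter on low counts. Of these 409, 239 were called higher in males (58.4%) and 0 lower, against 110 higher (1.27%) and 181 lower (2.1%) of 8639 genes on neither Z nor W. At an unadjusted p under 0.05, 3 Z genes were lower in males; DESeq2 called 1 and limma voom 0.

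The Z folds centred on a value below the ratio of gene copies. Their median log2 fold of males over females was 0.75, which is 1.68-fold, against -0.01 for the genes on neither chromosome. The 5th, 25th, 75th and 95th percentiles were -0.01, 0.42, 1.04 and 1.53, and 386 of 409 folds were above 0. A doubling, the ratio of Z copies, is a log2 fold of 1. The 95% interval held 1 and excluded 0 in 207 genes, lay between 0 and 1 in 83, lay above 1 in 19, held 0 and excluded 1 in 78, held both in 19 and lay below 0 in 3. The median fold was 0.81, 0.75 and 0.63 in bins of 136, 136 and 137 genes of rising mean CPM, which reached 9.27, 34.1 and 704 CPM. Of the 409, 34 had a male median of at least 10 counts and a female median under 10, so some passed the filter through the males, which can raise the folds of low genes. It was 0.70, 0.75 and 0.80 in the genes below 25 megabases of the Z sequence, from 25 to 50 and beyond 50, so the difference was spread along the chromosome. In 60 of 409 Z genes (14.7%) every male was above every female, and 0 of 8639 other genes had groups that did not overlap (0.663% over both classes). With bird 260 counted as a female, as its label says, 207 Z genes were called and the median was 0.67; its own Z level, -0.50, lay within the males.

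**Figure D2:**
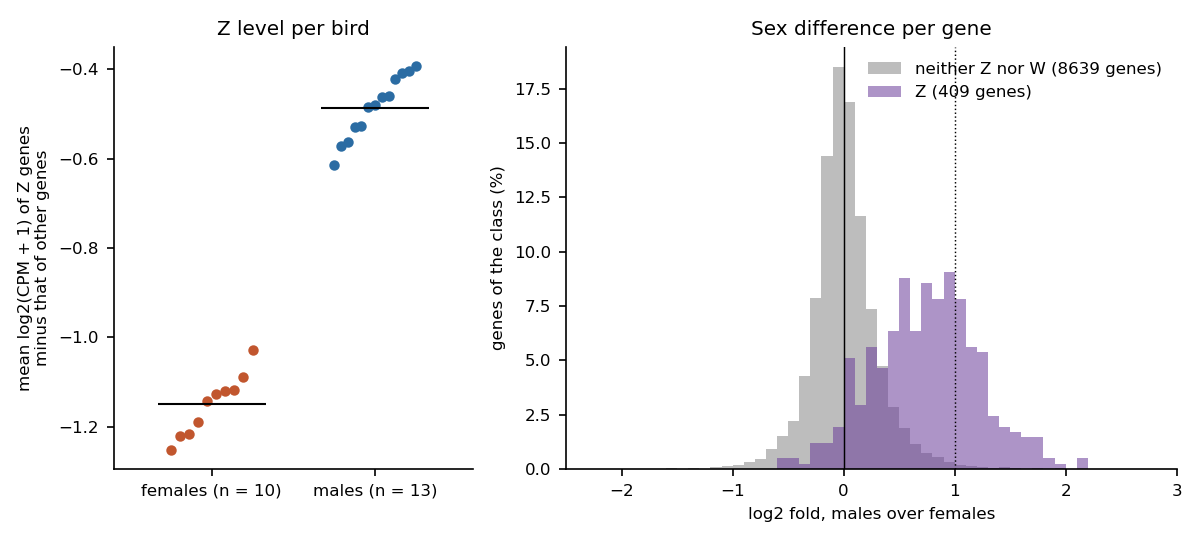
The left panel shows 1 point per bird for the mean log2(CPM + 1) of its Z genes less the mean of the other genes, with a line at the mean of each sex. The right panel shows the share of genes (%) by log2 fold of males over females for 409 Z genes and 8639 genes on neither Z nor W, with lines at 0 (solid) and at 1 (dotted): the Z genes centre on 0.75 and the others on -0.01.

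Among chromatin and transcription genes of the Z, SPIN1, a reader of histone marks, ranged over 233 to 282 CPM in females (median 259) and 429 to 551 CPM in males (median 519.5), a log2 fold of 0.97 ± 0.06 (adjusted p = 1.49e-13). SMARCA2, the motor of a chromatin remodelling complex, ranged over 183 to 223 CPM in females (median 199.9) and 345 to 476 CPM in males (median 400.4) (1.00 ± 0.07, adjusted p = 1.2e-12). In both genes all 13 males were above all 10 females. RNF20, a ubiquitin ligase that marks histone H2B, had 103 to 149 CPM in females (median 118) and 177 to 249.9 CPM in males (median 216) (0.84 ± 0.08, adjusted p = 2.56e-09). Of 16 tested Z genes listed for transcription and chromatin, 12 were called higher and 0 lower, beside 58.4% of all Z genes, with a median of 0.85 beside 0.75; whether the list differs from other Z genes was not tested, here or for the Z lists that follow. NR2F1, a nuclear receptor that patterns the cortex of mammals, and NFIB, a factor of neural and glial development, were among them at 0.80 and 0.56. SETBP1 (0.30 ± 0.13, adjusted p = 0.181) and RORB (0.54 ± 0.33, adjusted p = 0.366) were not called.

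Genes of RNA handling and protein synthesis had the highest median of the Z lists. Of 17 tested members 14 were called higher, with a median of 1.17 and a range of 0.54 to 1.77. MRPS27, a protein of the mitochondrial ribosome, had 6.42 to 14.9 CPM in females (median 8.44) and 20.5 to 50.3 CPM in males (median 32.1). At 1.77 ± 0.18 (adjusted p = 2.75e-08) it was the largest Z fold among genes with a symbol and at least 10 CPM. All 13 males were above the females. RPL17, of the large cytosolic ribosomal subunit, ranged over 127 to 198 CPM in females (median 146) and 249.6 to 511 CPM in males (median 324) (1.18 ± 0.11, adjusted p = 2.24e-09). PPWD1, a prolyl isomerase associated with the spliceosome, had 17.3 to 27.0 CPM in females (median 21.9) and 40.1 to 61.4 CPM in males (median 52.5) (1.24 ± 0.10, adjusted p = 1.69e-10), and PAIP1, which binds the poly(A)-binding protein, was at 1.12 ± 0.11. Ribosomal protein genes have near-identical copies elsewhere in many genomes, so the values of RPL17 and RPL37 are less certain than the others.

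Mitochondrial and metabolic genes followed, with 10 of 14 called higher and a median of 0.95. ATP5F1A, the alpha subunit of ATP synthase, had 163 to 289 CPM in females (median 234) and 419 to 579 CPM in males (median 489) (1.08 ± 0.09, adjusted p = 1.65e-10). NDUFS4, a subunit of respiratory complex I, ranged over 25.2 to 57.8 CPM in females (median 41.5) and 59.5 to 120.0 CPM in males (median 92.9) (1.15 ± 0.13), and MCCC2, an enzyme of leucine breakdown, was at 1.22 ± 0.14. Every male exceeded every female in these 3 genes. OXCT1, which lets neurons burn ketone bodies, was at 0.06 ± 0.12 (adjusted p = 0.822). ACAA2, a thiolase of fatty acid oxidation, had 2.84 to 11.4 CPM in females (median 6.63) and 9.20 to 41.4 CPM in males (median 16.7) (1.62 ± 0.26, adjusted p = 7.57e-05). Of 10 tested genes for protein folding and degradation 7 were called, with a median of 0.79. DNAJA1, a co-chaperone of HSP70, was at 1.13 ± 0.15, and ECPAS, an adaptor of the proteasome, at 0.77 ± 0.10.

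Signalling genes on the Z covered a wide range. SMAD2, which carries TGF-beta and activin signals to the nucleus, lay at bases 2051689 to 2100743 of the Z sequence, in the coordinates of the deposited table. It had 53.2 to 88.6 CPM in females (median 68.4) and 123 to 176 CPM in males (median 144) (1.08 ± 0.08, adjusted p = 1.69e-11). FST, the secreted activin inhibitor follistatin, was low, with 0.514 to 3.44 CPM in females (median 0.941) and 1.33 to 12.7 CPM in males (median 5.12), and had a log2 fold of 2.12 ± 0.38 (adjusted p = 0.00036). FST passed the filter mainly through the males, which can raise the folds of low genes. IL6ST, the shared receptor chain of interleukin-6 cytokines, was at 0.81 ± 0.11, RASA1, which switches RAS off, at 1.13 ± 0.13, and PTCH1, the hedgehog receptor, at 0.62 ± 0.11. GHR, the growth hormone receptor, was not called (-0.22 ± 0.27, adjusted p = 0.709). Of 18 tested genes of hormone and growth factor signalling, 10 were called higher and 0 lower, with a median of 0.75, close to the 58.4% and 0.75 of all Z genes.

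Synaptic and neuronal signalling genes had the lowest median of the Z lists, 0.28, with 11 of 27 called higher and 0 lower. GRIN3A, an NMDA receptor subunit, ranged over 35.1 to 90.7 CPM in females (median 50.3) and 71.5 to 152 CPM in males (median 105) (1.08 ± 0.16, adjusted p = 1.71e-05), and 8 of 13 males exceeded the highest female, bird 22. ADGRV1, a large adhesion receptor, had 8.03 to 46.8 CPM in females (median 22.2) and 35.9 to 152 CPM in males (median 75.7) (1.74 ± 0.31, adjusted p = 0.000467). VLDLR, a receptor for reelin, was at 0.63 ± 0.11 and PAM, which amidates neuropeptides, at 0.48 ± 0.10. NTRK2, the receptor of the growth factor BDNF, had 356 to 457 CPM in females (median 395) and 295 to 693 CPM in males (median 531). Its fold of 0.40 ± 0.12 (adjusted p = 0.042) was called here but not in 17 of 31 alternative settings. HOMER1, a scaffold of postsynaptic glutamate receptors, was at 0.02 ± 0.10 (adjusted p = 0.935) and SYT4, a synaptotagmin of vesicle release, at -0.07 ± 0.10 (adjusted p = 0.715).

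Among Z genes with a symbol and at least 10 CPM, 5 had the lowest folds, all below 0 and none called. EDIL3, an extracellular matrix protein, had 139 to 361 CPM in females (median 308) and 114 to 346 CPM in males (median 187) (-0.50 ± 0.18, adjusted p = 0.0902). MEF2C, an activity-regulated transcription factor of neurons, had 34.3 to 131 CPM in females (median 95.9) and 25.04 to 118 CPM in males (median 63.1) (-0.51 ± 0.22, adjusted p = 0.168). In both, bird 22 was the lowest female, and without it they were called lower in males (-0.58, adjusted p = 0.0161, and -0.61, adjusted p = 0.0405). Leaving out the lowest female moves a fold that way by itself, so these calls without it are no independent evidence of a difference. TRPM3, a cation channel, was at -0.40 ± 0.21 (adjusted p = 0.279), WDR7 at -0.26 ± 0.18 (adjusted p = 0.441) and PIK3R1, a regulatory subunit of PI3 kinase, at -0.25 ± 0.19 (adjusted p = 0.471). In caudal hippocampus of the same birds the folds of EDIL3, MEF2C and TRPM3 were 0.42 ± 0.12, 0.40 ± 0.11 and 1.00 ± 0.21. The difference between the regions was tested as a sex by region term over 69 libraries with bird as a block. It was called for EDIL3 (-0.97 ± 0.20, adjusted p = 0.0103), MEF2C (-0.98 ± 0.26, adjusted p = 0.0342) and TRPM3 (-1.41 ± 0.36, adjusted p = 0.0286). These genes were chosen by their low rostral folds, which enter that test, so the calls are no independent evidence of a difference between the regions.

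W genes had many counts in females and few in males. Summed over the W sequence, females had 1961 to 2472 CPM (median 2070) and males 20.5 to 43.7 (median 30.8). Of 165 W genes 45 had a count in females and 30 passed the filter, and in each of the 30 every female was above every male; 15 of them had no count in any male. These values describe the choice of birds and support no test. Of the 8 highest W genes, ordered by their CPM in females, 4 follow. The W copy of ATP5F1A led with 454 to 684 CPM in females (median 528), followed by those of VCP, a protein-extracting ATPase, with 301 to 408 CPM in females (median 334), and of HNRNPK, an RNA-binding protein, with 135 to 232 CPM in females (median 180.1). The W copy of NIPBL, which loads cohesin onto DNA, had 84.4 to 133 CPM in females (median 109). CHD1W itself, a chromatin remodeller at bases 8599514 to 8648049 of the W sequence, ranged over 30.5 to 51.1 CPM in females (median 40.7). The W copy of VCP also had counts in males, at most 27.0 CPM, that of SUB1 at most 5.99 and that of NIPBL at most 5.53 CPM. Relative to the female level the W copy of KIF2A, a kinesin, had the most among the 30 that passed the filter. Its male median of 1.86 CPM was 15.4% of the female median of 12.1, beside 5.44% for VCP. Among W genes that did not pass, 2 pseudogenes had higher medians in males. LOC115496059 had 1.71 CPM in males and 0.799 in females, and LOC115491317 had 0.759 and 0.633. Males have no W, and the counts do not show from which of 2 near-identical copies a read came.

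Genes that kept both a Z and a W copy were compared per length, since the copies differ in annotated length. By product or gene name 36 W genes had a partner on the Z, and both copies passed the filter in 26. All 26 Z copies were called higher in males, with log2 folds of 0.46 to 1.47 (median 0.97), against 213 of 383 other Z genes (median 0.73); that difference was not tested. In females the W copy had a median of 0.95 times the CPM per kilobase of the Z copy, from 0.05 to 2.62 times, and it exceeded the Z copy in 13 of 26. With both copies summed, the female level overlapped the males' Z level in 23 pairs, was above every male in 1 and below every male in 2. The log2 ratio of the male Z median to the female sum had a median of -0.13 over the pairs and ranged from -0.78 to 0.93.

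ATP5F1A was the pair in which the sum of every female was above every male. Its Z copy had 219 to 302 (median 255) CPM per kilobase in males and 85.0 to 151 (median 122) in females, whose W copy added 229 to 345 (median 266). Their sum of 354 to 496 (median 379) was above every male. SPIN1 and SMAD2 were the pairs in which the sum of every female was below every male. The W copy of SMAD2 had 1.75 to 3.38 (median 2.46) CPM per kilobase, 0.121 times the Z copy. On this scale the females' sum of 17.7 to 28.9 (median 22.1) stayed below the males' 35.8 to 51.0 (median 42.0). Both results depend on the annotated lengths, 11319 bases for the W copy and 3439 for the Z copy. In CPM the female medians were 27.8 for the W copy and 68.4 for the Z copy. For SPIN1 the sum was 59.5 to 73.7 (median 67.6) against 86.6 to 111 (median 105) in males. In NIPBL the sum of 16.0 to 24.2 (median 20.7) overlapped the males' 12.4 to 20.6 (median 17.8), and in MIER3, which recruits a histone deacetylase, 10.1 to 18.0 (median 14.7) overlapped 10.9 to 16.8 (median 14.5). MAP1B, a microtubule protein of axons, had the weakest W copy at 0.0525 times its Z copy. BTF3 and SLC25A51 had a W copy that passed the filter and a Z copy that did not.

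**Figure D3:**
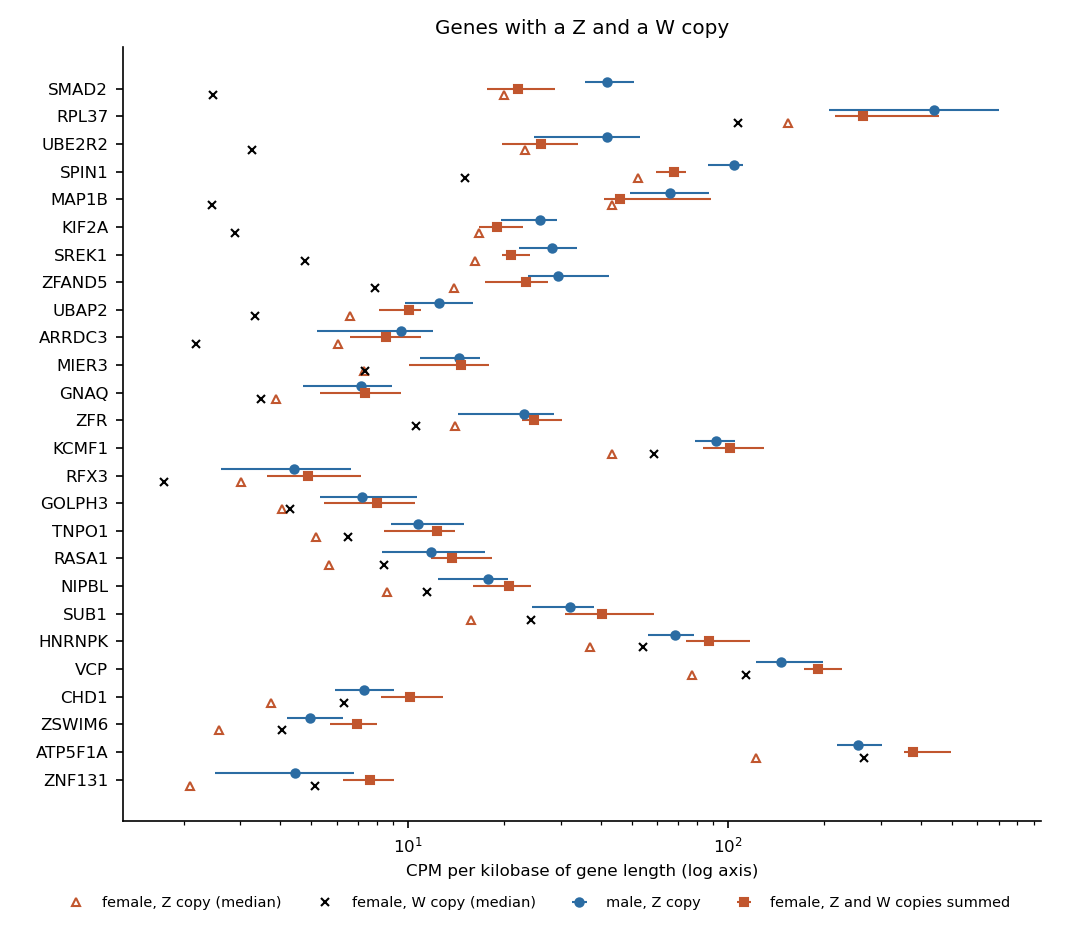
CPM per kilobase of gene length (log axis) for the 26 genes with a Z and a W copy, as the median with the lowest and highest bird for the male Z copy (n = 13) and for the female Z and W copies summed (n = 10), and as the median for each female copy alone. The pairs are ordered by the log2 ratio of the male Z median to the median female sum, from 0.93 for SMAD2 at the top to -0.78 for ZNF131 at the bottom; ranges overlap in 23 pairs.

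Outside the Z and W sequences 291 of 8639 genes (3.37%) were called, 110 higher and 181 lower in males. Of the 291, 1 lay on an unplaced sequence. Median log2 folds were 0.76 among those higher and -0.51 among those lower, and 45 had a fold of at least 1 on the log2 scale in either direction. Without bird 22, 349 were higher and 417 lower, which held all 110 and 180 of the 181. Of 39 called genes taken by the rules for named genes, all were called in the same direction without bird 22, 33 with a fold farther from 0, and TRPA1 was the 1 that moved by over 1.5 times. In all 31 alternative settings 33 of the 110 and 59 of the 181 were kept, against 182 of 239 Z genes. In caudal hippocampus of the same birds 19 such genes were higher and 21 lower of 8506 tested, and in striatum 5 and 3 of 8388. In this bulk tissue, fewer cells of a type and less RNA per cell cannot be told apart. Whether the rostral tissue was cut at the same place in both sexes was not tested.

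Secreted proteins and signalling genes were among the 10 largest called folds higher in males, ranked among genes with a symbol. HKDC1, named only by identifier and product, had a larger fold than some of them (1.79 ± 0.32) and was not ranked. CPAMD8, of the alpha-2-macroglobulin family, had 0.491 to 3.19 CPM in females (median 1.88) and 1.19 to 16.7 CPM in males (median 7.48) (2.01 ± 0.42, adjusted p = 0.0022), with 10 of 13 males above the highest female. NPY, a neuropeptide of interneurons, ranged over 25.6 to 110.4 CPM in females (median 43.6) and 46.8 to 292 CPM in males (median 114) (1.34 ± 0.31, adjusted p = 0.00916), and 8 males were above all females. Bird 22, at 109 CPM, was close to the highest female, and male 8 was the lowest male at 46.8. ADCY7, an enzyme that makes cyclic AMP, had 3.06 to 27.9 CPM in females (median 15.4) and 16.4 to 71.6 CPM in males (median 39.9) (1.47 ± 0.34, adjusted p = 0.00743).

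MASP1, a protease of the complement system, had 0.219 to 17.7 CPM in females (median 6.84) and 6.08 to 33.4 CPM in males (median 20.2) (1.38 ± 0.35, adjusted p = 0.0143). COL5A1, a fibrillar collagen chain, had 0.736 to 10.3 CPM in females (median 1.64) and 1.59 to 22.9 CPM in males (median 7.49) (1.71 ± 0.44, adjusted p = 0.016), and bird 22 was its highest female; without it the fold was 2.15 (adjusted p = 0.000743). Groups overlapped in these genes, and 8 and 5 males were above all females. ANXA2, a calcium-dependent membrane-binding protein, was at 1.78 ± 0.50 (adjusted p = 0.0323) and NHLH2, a neuronal transcription factor, at 1.39 ± 0.42 (adjusted p = 0.042). RGS22, a regulator of G protein signalling, was at 1.98 ± 0.60 (adjusted p = 0.0484), TRPA1, an irritant-sensing cation channel, at 1.65 ± 0.50 (adjusted p = 0.0499; without bird 22, 2.35, adjusted p = 0.00081) and TMEM269 at 1.44 ± 0.42 (adjusted p = 0.0346). With p adjusted outside the W, RGS22, TRPA1, DACH2, FABP7 and NR3C1 were not called. Of 30 settings the call was lost in 16 for RGS22 and 10 for TMEM269, and of 31 settings in 17 for NHLH2, 21 for TRPA1 and 10 for ANXA2. Female counts were 2 to 16 for CPAMD8, 3 to 41 for COL5A1 and 2 to 64 for TRPA1. They were 0 to 14 for RGS22 and 0 to 18 for TMEM269. These genes passed the filter mainly through the males, which can raise the folds of low genes.

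Transcription factors, adhesion proteins and makers of retinoic acid were among the 10 largest called folds lower in males, again among genes with a symbol. DACH1 and DACH2 are related transcription factors of development. DACH1 had 6.55 to 86.0 CPM in females (median 36.7) and 9.19 to 40.0 CPM in males (median 12.2) (-1.38 ± 0.31, adjusted p = 0.00642), and DACH2 had 1.76 to 63.7 CPM in females (median 33.1) and 1.71 to 36.0 CPM in males (median 6.83) (-1.59 ± 0.48, adjusted p = 0.0488). Bird 22 was the lowest female in both and male 8 the highest male, and without bird 22 the folds were -1.51 (adjusted p = 0.000317) and -1.73 (adjusted p = 0.00858). The call of DACH2 was lost in 22 of 31 settings. CDH22, a cadherin, ranged over 27.2 to 277 CPM in females (median 147) and 9.57 to 137 CPM in males (median 38.9) (-1.499 ± 0.40, adjusted p = 0.0243), with 5 of 13 males below the lowest female. That female was bird 22, and without it the fold was -1.63 (adjusted p = 0.00589). Bird 22 was also the lowest female in ALDH1A2, KL, CPNE4, THSD7A and CABP7, described below. FSTL4, of the follistatin family, had 1.96 to 12.6 CPM in females (median 7.01) and 0.252 to 5.82 CPM in males (median 1.498) (-1.77 ± 0.43, adjusted p = 0.0104). It held 8 to 51 counts in females and 1 to 23 in males, so it passed the filter mainly through the females. The same held for ALDH1A3, described next, with 8 to 23 and 2 to 13 counts.

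ALDH1A2 and ALDH1A3 encode enzymes that make retinoic acid, a vitamin A hormone. ALDH1A2 had 7.81 to 119.7 CPM in females (median 35.5) and 3.85 to 41.3 CPM in males (median 11.6) (-1.58 ± 0.43, adjusted p = 0.0293). ALDH1A3 had 2.19 to 5.96 CPM in females (median 3.23) and 0.397 to 2.78 CPM in males (median 1.11) (-1.34 ± 0.31, adjusted p = 0.00803), and 10 of 13 males were below the lowest female. Genes of the same pathway, chosen after their values were seen, were RDH10, which makes retinal, at -0.96 ± 0.24 (adjusted p = 0.0129) and RXRA, a nuclear receptor partner of retinoic acid receptors, at -0.61 ± 0.17 (adjusted p = 0.029). The call was lost in 8 of 31 settings for ALDH1A2, 1 of 27 for ALDH1A3, 0 of 31 for RDH10 and 6 of 31 for RXRA.

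KL, the anti-ageing protein klotho, which choroid plexus makes in quantity, had 4.53 to 16.8 CPM in females (median 8.60) and 0.214 to 9.79 CPM in males (median 2.30) (-1.504 ± 0.39, adjusted p = 0.0194), and 9 of 13 males were below the lowest female. Of the other 11 ependyma and choroid plexus genes found, TTR, which defines choroid plexus, had at most 2.21 CPM in females and 8.78 in males and was not tested. The 3 tested genes of the list had folds of -1.504 to -0.19 (median -0.59), and only KL was called. OTX2, CLIC6 and KCNJ13 had a median of 0 in both sexes, and the summed list overlapped between females, at 173 to 334 CPM, and males, at 120.0 to 295 CPM. CPNE4, a calcium-dependent membrane protein, was at -1.30 ± 0.34 (adjusted p = 0.0237), THSD7A at -1.29 ± 0.33 (adjusted p = 0.0166) and CABP7, a calcium sensor, at -1.18 ± 0.27 (adjusted p = 0.00727).

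**Figure D4:**
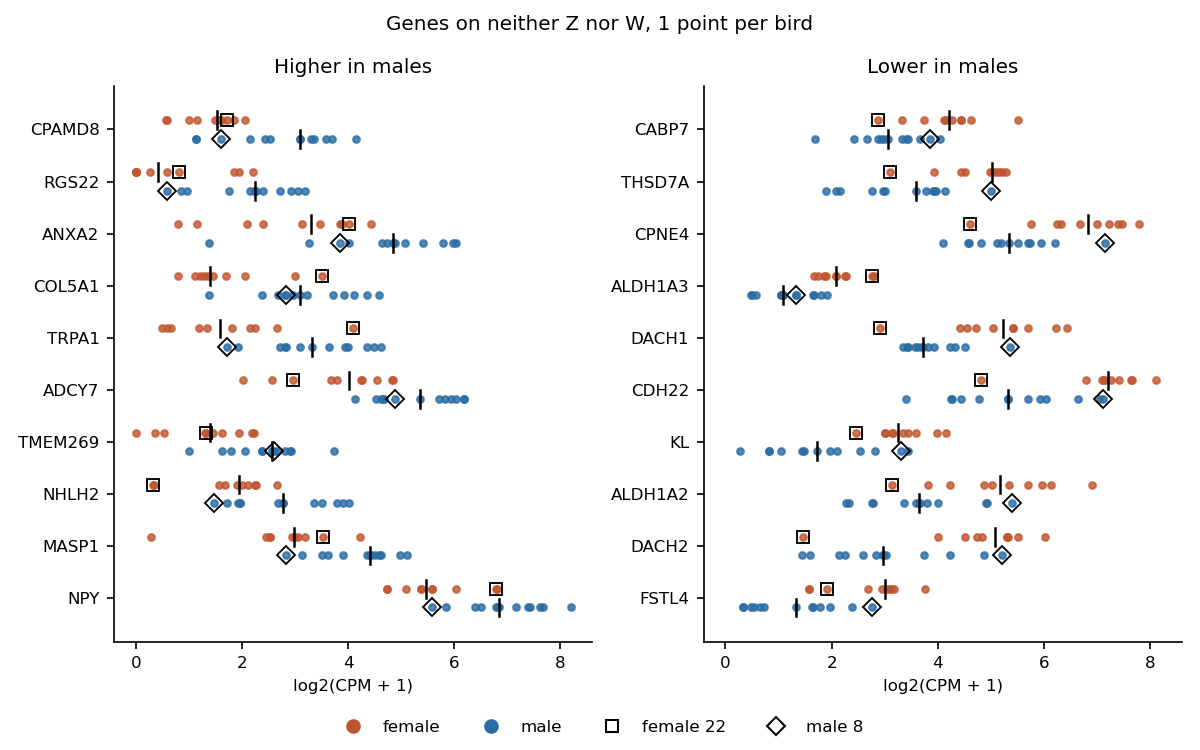
Level of each bird on the log2(CPM + 1) scale for 20 genes on neither Z nor W, with a short line at the median of each sex. They have the largest called folds among genes with a symbol, 10 higher and 10 lower in males. A square marks female 22 and a diamond male 8. Groups overlap in all 20 genes, and the fold is farthest from 0 in CPAMD8 (2.01) among genes higher and in FSTL4 (-1.77) among genes lower.

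Few genes of the neuronal cell type lists were called. Their counts, and those of the lists that follow, stand beside 1.27% higher and 2.1% lower over all genes on neither Z nor W. For the Z genes of a list the share is 58.4% higher. Whether a list differs from other genes was not tested. Of 19 tested interneuron genes 2 were called, both peptides and both higher in males: NPY and SST. SST, somatostatin, had 262 to 723 CPM in females (median 323) and 292 to 1018 CPM in males (median 691) (0.87 ± 0.22, adjusted p = 0.0189), and bird 22 was its highest female. Without bird 22 its fold was 1.04 (adjusted p = 0.00139). GAD2, which makes GABA, was at -0.25 ± 0.11 (adjusted p = 0.175), PVALB, a calcium buffer of fast-spiking cells, at -0.43 ± 0.16 (adjusted p = 0.104), and the list's median was -0.15. The summed list was 3843 to 4637 CPM in females and 2942 to 5507 in males.

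Of 26 tested genes of pallial glutamatergic neurons 1 was called, and their median was 0.00. It was ZBTB20, a factor needed for hippocampal neuron identity in mice, with 10.3 to 41.3 CPM in females (median 19.2) and 17.2 to 63.9 CPM in males (median 40.3) (0.98 ± 0.24, adjusted p = 0.0114). SATB1, a chromatin organiser, was at -0.74 ± 0.24 (adjusted p = 0.0734), and CAMK2A, a kinase of synaptic plasticity, at -0.25 ± 0.14 (adjusted p = 0.327). EMX1, a pallial transcription factor that the table names only by identifier and product, was at 0.65 ± 0.18 (adjusted p = 0.0301); it was looked up after its value was seen.

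Genes of striatal medium spiny neurons were 1 higher and 1 lower of 16 tested, with a median of -0.34. MEIS2, a homeobox factor of striatal and other neurons, had 165 to 544 CPM in females (median 438) and 184 to 384 CPM in males (median 275) (-0.62 ± 0.15, adjusted p = 0.011; without bird 22, -0.71, adjusted p = 9.9e-05), and GPR6, a receptor of striatal neurons, had 7.65 to 19.4 CPM in females (median 14.1) and 12.8 to 33.6 CPM in males (median 23.2) (0.66 ± 0.18, adjusted p = 0.0219). DRD1, a dopamine receptor, was at -0.34 ± 0.12 (adjusted p = 0.105). The summed list was 749 to 1377 CPM in females (median 1208) and 761 to 1111 in males (median 965), and its part in the other results was not tested.

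Glial, vascular and blood genes gave few calls. FABP7, a fatty acid binding protein of radial glia and astrocytes, was the 1 call among 11 astrocyte genes, with 28.3 to 194 CPM in females (median 55.2) and 44.1 to 419.7 CPM in males (median 179) (1.24 ± 0.37, adjusted p = 0.0499). Its call was lost in 20 of 31 settings. Without bird 22, its highest female, the fold was 1.54 (adjusted p = 0.00623). The median was -0.24 over 9 tested oligodendrocyte genes and -0.19 over 13 vascular and meningeal genes. MBP, a myelin protein, was at -0.44 ± 0.22 (adjusted p = 0.26) and TF, the iron carrier transferrin, at -0.52 ± 0.20 (adjusted p = 0.118). Of 2 tested microglia genes 1 was called, a Z gene, beside 58.4% of all Z genes. CSF1R, a defining receptor of microglia, was at -0.21 ± 0.28 (adjusted p = 0.732).

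Calls among receptor and transmitter genes went in both directions, beside 1.27% higher and 2.1% lower over all genes on neither Z nor W. Of 28 glutamate and GABA receptor genes 2 were higher, GRIN3A on the Z and GABRA5, and 3 were lower, GRIA4 among them, with a list median of -0.18. The GABA-A subunit GABRA5 had 160.0 to 548 CPM in females (median 229.6) and 173 to 603 CPM in males (median 522) (0.81 ± 0.21, adjusted p = 0.0182), with bird 22 the highest female and male 8 the lowest male; without bird 22 the fold was 0.99 (adjusted p = 0.0005). GRIA4, an AMPA receptor subunit, was at -0.53 ± 0.16 (adjusted p = 0.0427).

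Of 23 tested monoamine, opioid and cannabinoid genes 1 was called, higher in males, and the list's median was 0.04. GUCY1A1 and GUCY1B1, the subunits of the nitric oxide receptor that makes cyclic GMP, were lower in males at -0.90 ± 0.26 (adjusted p = 0.042) and -0.48 ± 0.13 (adjusted p = 0.0189); both were chosen after their values were seen, and the call of GUCY1A1 was lost in 19 of 31 settings.

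Immediate early genes, which neurons switch on after activity, included 1 call among 16 tested, with a median of -0.28. EGR3 had 121 to 358 CPM in females (median 241) and 107 to 212 CPM in males (median 153) (-0.54 ± 0.14, adjusted p = 0.0173). EGR1 had 107 to 406 CPM in females (median 177) and 103 to 216 CPM in males (median 160.0) (-0.41 ± 0.20, adjusted p = 0.233), and ARC was at -0.38 ± 0.20 (adjusted p = 0.274). Of 17 stress axis genes 1 was called, the glucocorticoid receptor NR3C1, with 56.2 to 128 CPM in females (median 107) and 42.6 to 109 CPM in males (median 71.5) (-0.47 ± 0.14, adjusted p = 0.0499). That call lay at the threshold and was lost in 20 of 31 settings. Without bird 22, its lowest female, the fold was -0.54 (adjusted p = 0.00787). NR3C2, the mineralocorticoid receptor, was at 0.31 ± 0.14 (adjusted p = 0.204) and CRH, the releasing hormone of the axis, at -0.69 ± 0.25 (adjusted p = 0.103).

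Genes of sex steroid signalling were examined next. CYP19A1, aromatase, which makes oestrogens, had 0 to 3.86 CPM in females (median 0.781) and 0 to 8.75 CPM in males (median 3.85) (1.42 ± 0.57, adjusted p = 0.139), and it was not called in any of its 30 alternatives. ESR1, an oestrogen receptor, had at most 0.772 CPM in females and 2.88 in males and was not tested. PGR, the progesterone receptor, was at 1.27 ± 0.44 (adjusted p = 0.0826) and GPER1, a membrane oestrogen receptor, at 0.95 ± 0.37 (adjusted p = 0.126). Of 8 tested genes of the list 1 was called, HSD17B4, a Z gene of peroxisomal fatty acid and steroid breakdown, beside 58.4% of all Z genes. It had 44.2 to 69.3 CPM in females (median 60.3) and 83.0 to 144 CPM in males (median 124) (1.05 ± 0.09, adjusted p = 1.46e-09).

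A gene outside the assembled chromosomes was called higher in males in all 3 regions. PIAS2, a SUMO ligase whose gene lies on an unplaced sequence of the table, had 17.9 to 32.9 CPM in females (median 27.2) and 31.2 to 60.9 CPM in males (median 43.2) (0.80 ± 0.14, adjusted p = 0.000153), 0.69 ± 0.14 in caudal hippocampus and 0.62 ± 0.14 in striatum. It was chosen after its values were seen, and it was the 1 called gene among 12 tested on unplaced sequences. Unplaced sequences were counted with the genes on neither Z nor W. Their chromosome is not given, and it could be a sex chromosome.

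The sex difference was compared with that in the other regions of the same birds. On the Z the medians were close, 0.77 in caudal hippocampus (229 of 388 called) and 0.76 in striatum (187 of 394). Of 439 Z genes in the test of rostral against caudal hippocampus, the male excess was larger in rostral hippocampus in 2 and smaller in 3. Of 9315 genes on neither sex chromosome it was larger in 68 and smaller in 107, and 180 of 9788 genes were called in all (1.84%). Against striatum 1 of 9788 was called (0.0102%), which was NPY; it was not called without the bird block. Without bird 22 the counts were 400 and 90, and without male 8 they were 499 and 38.

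NPY had the clearest difference between the regions. In caudal hippocampus it had 64.0 to 128 (median 100.03) CPM in females and 31.5 to 131 (median 60.9) in males, a log2 fold of -0.50 ± 0.19, against 1.34 ± 0.31 in rostral hippocampus. The difference of the folds was 1.94 ± 0.28, adjusted p = 0.000137, and against striatum 1.49 ± 0.28, adjusted p = 0.0199. DLK1, a secreted and membrane-bound relative of Notch ligands, ranged over 6.78 to 42.1 CPM in females (median 18.7) and 15.2 to 80.9 CPM in males (median 39.5) in rostral hippocampus (0.90 ± 0.26). In caudal hippocampus it had 31.2 to 71.6 (median 47.4) CPM in females and 12.7 to 56.8 (median 39.2) in males (-0.57 ± 0.19), and the difference was 1.495 ± 0.23, adjusted p = 0.00024. The folds of both genes were above 0 in rostral and below 0 in caudal hippocampus, where neither was called alone. The rostral call of DLK1 was lost in 13 of 31 settings.

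HKDC1, a hexokinase, had 4.20 to 9.82 CPM in females (median 6.85) and 8.59 to 67.6 CPM in males (median 16.5) in rostral hippocampus (1.79 ± 0.32, adjusted p = 0.000345), and 12 of 13 males were above all females. Its caudal fold was -0.04 ± 0.20 (difference 1.61 ± 0.31, adjusted p = 0.0103). For KCTD6, an adaptor of a ubiquitin ligase, the rostral and caudal folds were 0.55 ± 0.14 and -0.28 ± 0.11 (difference 0.77 ± 0.15, adjusted p = 0.00876), and for ZBTB20 they were 0.98 ± 0.24 and -0.10 ± 0.16 (difference 1.07 ± 0.25, adjusted p = 0.0214). MEF2A, a relative of MEF2C outside the Z, went the other way. It had 139 to 334 CPM in females (median 295) and 112 to 278 CPM in males (median 189) in rostral hippocampus (-0.56 ± 0.13, adjusted p = 0.00827) and a caudal fold of 0.24 ± 0.09 (difference -0.83 ± 0.16, adjusted p = 0.0103). EFR3A, a membrane protein that anchors a lipid kinase, was at -0.45 ± 0.15 and 0.09 ± 0.12 (difference -0.57 ± 0.15, adjusted p = 0.0358). ZBTB20 and EFR3A were named by the test against striatum, which uses the same rostral libraries. Their passes against caudal hippocampus are therefore not independent of that choice. Caudal medians in females and males were 44.7 and 41.0 CPM for HKDC1, 154 and 127 for KCTD6, and 35.6 and 30.0 for ZBTB20. They were 218 and 262.5 for MEF2A and 156 and 165 for EFR3A. Rostral medians were 99.2 and 147 CPM for KCTD6 and 279 and 193 for EFR3A. In all genes named by the tests between regions, the male rostral median lay on the caudal side of the female one. Whether the place of the cut differed between the sexes was not tested. ALDH1A2 was called in the opposite direction in caudal hippocampus (0.94 ± 0.25). The 20 genes with the largest rostral folds among those with a symbol were chosen by folds that enter the test between the hippocampal parts. Their passes are thus no independent evidence of a difference between the parts. Over all genes 1.84% passed. Of the 20, 13 passed and 7 did not. KL (-3.15 ± 0.66, adjusted p = 0.0103), CDH22 (-2.62 ± 0.53, adjusted p = 0.0103), ALDH1A2 (-2.35 ± 0.53, adjusted p = 0.0183), DACH1 (-1.31 ± 0.36, adjusted p = 0.041) and ADCY7 (1.55 ± 0.36, adjusted p = 0.0185) were among those that passed, and CPAMD8 (2.42 ± 0.72, adjusted p = 0.0675), TMEM269, COL5A1, ANXA2, RGS22, ALDH1A3 and CABP7 were those that did not.

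**Figure D5:**
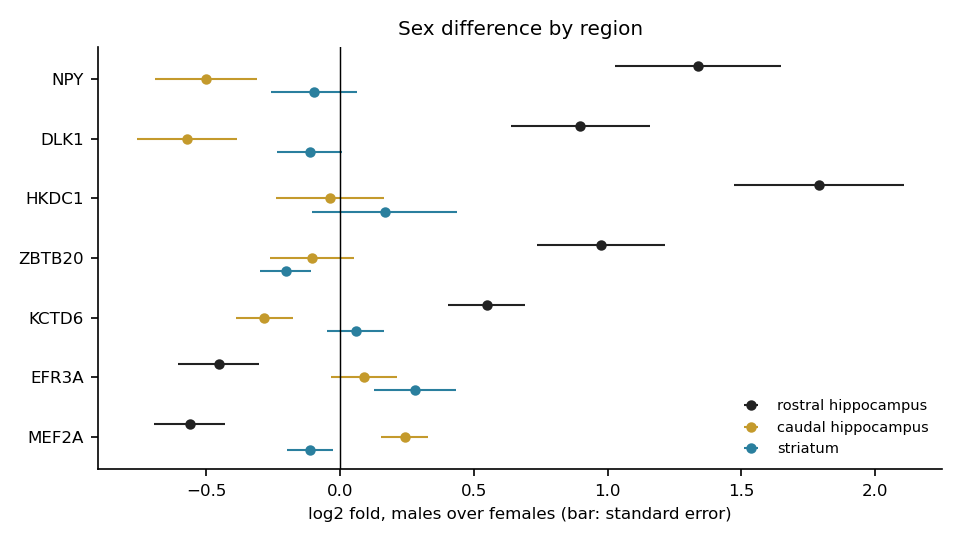
Log2 fold of males over females, with its standard error, in rostral hippocampus, caudal hippocampus and striatum of the same 23 birds, each region fitted alone, for the 7 genes named by the tests between regions. The rostral folds of NPY and DLK1 are 1.34 and 0.90 where the caudal ones are -0.50 and -0.57, and that of MEF2A is -0.56 where the caudal one is 0.24.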

How the data were processed

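The authors deposited whole-number counts per gene for 21957 genes in 72 libraries, not normalized. HISAT2 and StringTie were used, per the submitters' processing notes; the genome build, annotation, strand use and counter were not given in the sources used here. Gene positions and lengths are those of the deposited table; its identifiers match none in the tree sparrow RefSeq gene table, so that table was not used. Levels of Z and W copies are compared per kilobase of the table's gene length, and for SMAD2 also given in CPM. CPM grows with length. It orders W genes, bins Z genes, sets the cutoffs for named genes and picks the most abundant list members. Sums over lists and the Z level also rest on CPM, and there the same genes are compared between birds. Since strand use is unknown, reads of overlapping or antisense genes may be mixed.

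The 23 rostral libraries were fitted in edgeR 4.0.16 (R 4.3.3; TMM, the filterByExpr filter at 10 counts and a total of 15, robust quasi-likelihood test, Benjamini-Hochberg threshold 0.05). Depth is given with the results. Sex by region terms used the 69 libraries of these birds with bird as a block; libraries were paired by the labels' bird numbers (median correlation of deviations 0.153 with caudal hippocampus and 0.143 with striatum, against -0.02 and -0.01 for different birds). DESeq2 1.42.0, limma 3.58.1 voom, other scalings and filters, and leaving out each bird were alternatives. The steps were tested on simulated data. No rostral libraries were duplicates (lowest chi-square per degree of freedom 6.45 between females and 7.33 between males).

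Genes named were, on the Z, the 10 with the smallest p and the 5 largest and 5 smallest folds at a mean CPM of at least 10. Folds were ranked among genes with a symbol. On neither Z nor W the genes named were the 10 largest called folds in each direction at a mean CPM of at least 1. On the W they were the 8 highest and CHD1W, and for each test between regions the 5 smallest p. From 21 gene lists up to 4 called members were taken, or the 2 most abundant where none was called, with every Z and W pair and 9 fixed genes; not all are printed, and a few genes are not reported here. Other list members are examples named after their values were seen. Birds, lists and genes were chosen with earlier results of these data known. P-values of the rostral comparison judge the sex difference against the variation between birds. Those of the sex by region terms, with bird as a block, judge it against the variation left within birds.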

Additional observations from a re-analysis of the deposited data

Results flagged for a closer look

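Groups of 10 females were examined with Dixon's test at 95%. A library was marked where its gap to the nearest other female was a large share of the group's range. For normally distributed values chance does this in about 1 of 20 groups. In all, 18 of 110 were marked. Genes of the same birds are not independent and some had a female median of 0, so this count cannot be judged against that rate. Males, 13 in number, were not tested. The first principal component of female 22 was -23.6 where the female median was 19.6. The same bird was marked for MAP1B at 1036 CPM, SST at 723, GABRA5 at 548, FABP7 at 194, PAM at 108, GRIN3A at 90.7, ZBTB20 at 41.3 and TRPA1 at 16.1, all above the other females. It was below them for EDIL3 and for MEF2A, both at 139 CPM. Other females were marked for 1 or a few genes: bird 18 for CABP7 (44.4 CPM), bird 14 for DCN, a connective tissue proteoglycan (89.3), bird 10 for HBAD, a haemoglobin chain (70.5), bird 4 for RPL37 (99.5) and ZSWIM6 (91.2), bird 13 for TTR (2.21) and bird 1 for ESR1 (0.772).

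The sex difference itself differed between rostral and caudal hippocampus, by the sex by region test, for NPY (1.94), DLK1 (1.495), HKDC1 (identifier LOC100232212, 1.61), ZBTB20 (1.07), KCTD6 (0.77), EFR3A (-0.57) and MEF2A (-0.83), and between rostral hippocampus and striatum for NPY (1.49), each as a difference of log2 folds.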

How the results depend on the processing

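Over the 31 alternatives to the rostral comparison the count of Z genes higher in males stayed within 1.5 times of 239, and its range when leaving out 1 bird was 216 to 264. The median Z fold was 0.72 to 0.76 when leaving out 1 bird and 0.67 with bird 260 among the females. Z genes lower in males numbered 1 with DESeq2 and 1 with all 3 regions in 1 fit, EDIL3 in both, and 0 to 2 when leaving out 1 bird. Outside the sex chromosomes, leaving out 1 bird gave 56 to 349 genes higher and 93 to 417 lower; DESeq2 gave 183 and 324, and 1 fit of all 3 regions 280 lower. By scaling, higher and lower were 99 and 206 with RLE size factors and 117 and 158 with TMM factors from genes on neither sex chromosome. For rostral against caudal hippocampus, the 2 regions alone gave 96 genes, no replicate block 132, and leaving out female 22 or male 8 (added after seeing the data) 400 and 499. Against striatum, where 1 gene was called, a mean CPM of at least 5 gave 4, bird 260 among the females 2, no replicate block 0 (771 at an unadjusted p under 0.05), and leaving out those birds 90 and 38. The cause was not tested. Of 85 named genes called, 66 were called in all 31 alternatives; p adjusted over genes outside the W, added after seeing the data, ended the call of 5. Uncalled genes whose sign changed ranged, when leaving out 1 bird, over -0.26 to 0.033 for COL1A2 (0.012 without female 14), -0.46 to 0.092 for DCN and -0.053 to 0.29 for HBAD, which was -0.087 with bird 260. The lowest mean of a tested Z gene was 2.20 CPM, so rarer Z genes were not compared.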

Other observations

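Bird 260 is labelled female and was in no group here. Its rostral library had 0 counts of CHD1W, 29.2 CPM over the W genes and a Z level of -0.50, where the males ranged over 20.5 to 43.7 CPM and -0.61 to -0.39.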
